A study of Mus musculus with 4 samples.

Results

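Afp, Alb, Ambp, Gc, Spp2, Ttr and Vtn encode secreted plasma proteins that the fetal liver makes in quantity, and their transcripts were followed here in single cells of the mouse embryonic pancreas. The 7 genes were chosen by name, with earlier results of these data known, out of 27998 gene rows in each of 2 count tables. All 7 were present in both tables. Because the genes were picked for how they looked in these cells, their levels are given as a description and no test was made of them.

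The 7 proteins circulate in plasma as carriers, protease inhibitors, adhesion factors or matrix-binding phosphoproteins. Liver and pancreas both bud from foregut endoderm, and their early progenitors share transcription factors of the HNF1, HNF4, FOXA and ONECUT families, which also bind the regulatory regions of plasma protein genes in hepatocytes. Ttr is in addition a known product of pancreatic islet cells, where it is most familiar from glucagon-producing alpha cells.

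Cells came from embryonic pancreas at E15.5 and were profiled on the 10x platform, which counts transcripts by unique molecular identifiers (UMIs). The knockout library came from PdxCre;OGTflox/flox;CAG GFP embryos, in which Cre recombinase under the Pdx promoter recombines floxed Ogt and switches on a GFP reporter in the pancreatic lineage, and GFP-positive cells were sorted. The control library came from OGTflox/flox animals with no Cre in the stated genotype, labelled WT, whose cells were sorted on E-cadherin GFP. Floxed Ogt was thus common to both genotypes, and genotype and sort cannot be told apart. Each genotype had 2 sequencing runs of the same material in 1 table, so there was 1 library per genotype, no replicate check and no p-value. The number of pooled embryos is not given in the sources used here. All intervals are exact 95% intervals for counting error, and the spread of cells, embryos or libraries is not in them.

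In the knockout library there were 617 barcodes with 11064540 UMIs (median 15367), and in the control library 941 barcodes with 11973979 UMIs (median 10756). No barcode sequence occurred in both. After filtering, 556 knockout and 920 control cells remained and were grouped into 18 clusters without use of the 7 genes or of the other plasma protein genes listed further on. Although the labels call the material pancreatic epithelial cells, leukocyte-like clusters made up 14.6% of knockout cells and 87.7% of control cells. Ogt, the targeted gene, measured 37.2 CPM (UMIs of the gene over all UMIs of the summed cells, scaled as CPM) in 267 knockout epithelial-like cells and 57.1 CPM in 105 control epithelial-like cells, a ratio of 0.652 (0.518 to 0.824), but in acinar-like cells it measured 38.04 CPM in knockout and 37.12 CPM in control cells, a ratio of 1.025 (0.725 to 1.47). In endocrine-like cells Ogt measured 29.5 CPM in knockout and 122.7 CPM in control cells, from 21 UMIs each (ratio 0.241, 0.125 to 0.463). The labels do not name the deleted exons, so a count that comes from outside them checks nothing, and "knockout" below means the library so labelled.

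The epithelial cells fell into 4 classes. Acinar-like cells, named from digestive enzyme transcripts, numbered 93 in the knockout and 50 in the control library. All 93 knockout cells lay in one cluster led by Cpa1, Serpina6 and Vtn, and 49 of the control cells in another led by Prss1, Try10 and Cela3a. Trunk/ductal-like cells (37 knockout, 35 control) and endocrine-like cells (42 knockout, 20 control) each formed 1 cluster shared by both libraries. A further cluster of 95 cells was found in the knockout library alone. It had high Epcam and Cdh1 and was led by Cym, Serpina1b, Serpina1a and Spp2. Its leading genes held more markers of another type than of the trunk/ductal list that fitted it best, so it stays unnamed and is called the Cym-led cluster.

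Cells outside the pancreatic epithelium set the background. Leukocyte-like cells, which should lack the 7 transcripts, held them at 614.5 CPM in sum in the knockout library (838 UMIs in 81 cells) and at 127.9 CPM in the control library (1246 UMIs in 807 cells), a ratio of 4.81 (4.397 to 5.250). In the knockout library, leukocyte-like, mesenchyme-like and mesothelium-like cells shared nearly one level for each gene: Ttr lay between 352.7 and 403.5 CPM, Ambp between 119.7 and 136.4 CPM, Vtn between 50.7 and 60.9 CPM, and Gc between 25.6 and 38.1 CPM. Ttr was the largest part of these counts inside and outside the epithelium. It gave 57.4% of the UMIs of the 7 genes in knockout leukocyte-like cells and 59.6% in all knockout epithelial-like cells, and in the control library 59.6% and 61.5%. Other members differed more, with Vtn at 9.91% of knockout leukocyte-like (7.97 to 12.1) and 7.43% of knockout epithelial-like UMIs (7.04 to 7.84), and Gc at 6.66% (5.34 to 8.19) and 9.27% (8.27 to 10.3) in the control library. Transcripts free in a cell suspension enter droplets of every cell type. Their part in these levels was not tested, and each epithelial value below is read beside the leukocyte-like value of its own library.

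**Figure D1:**
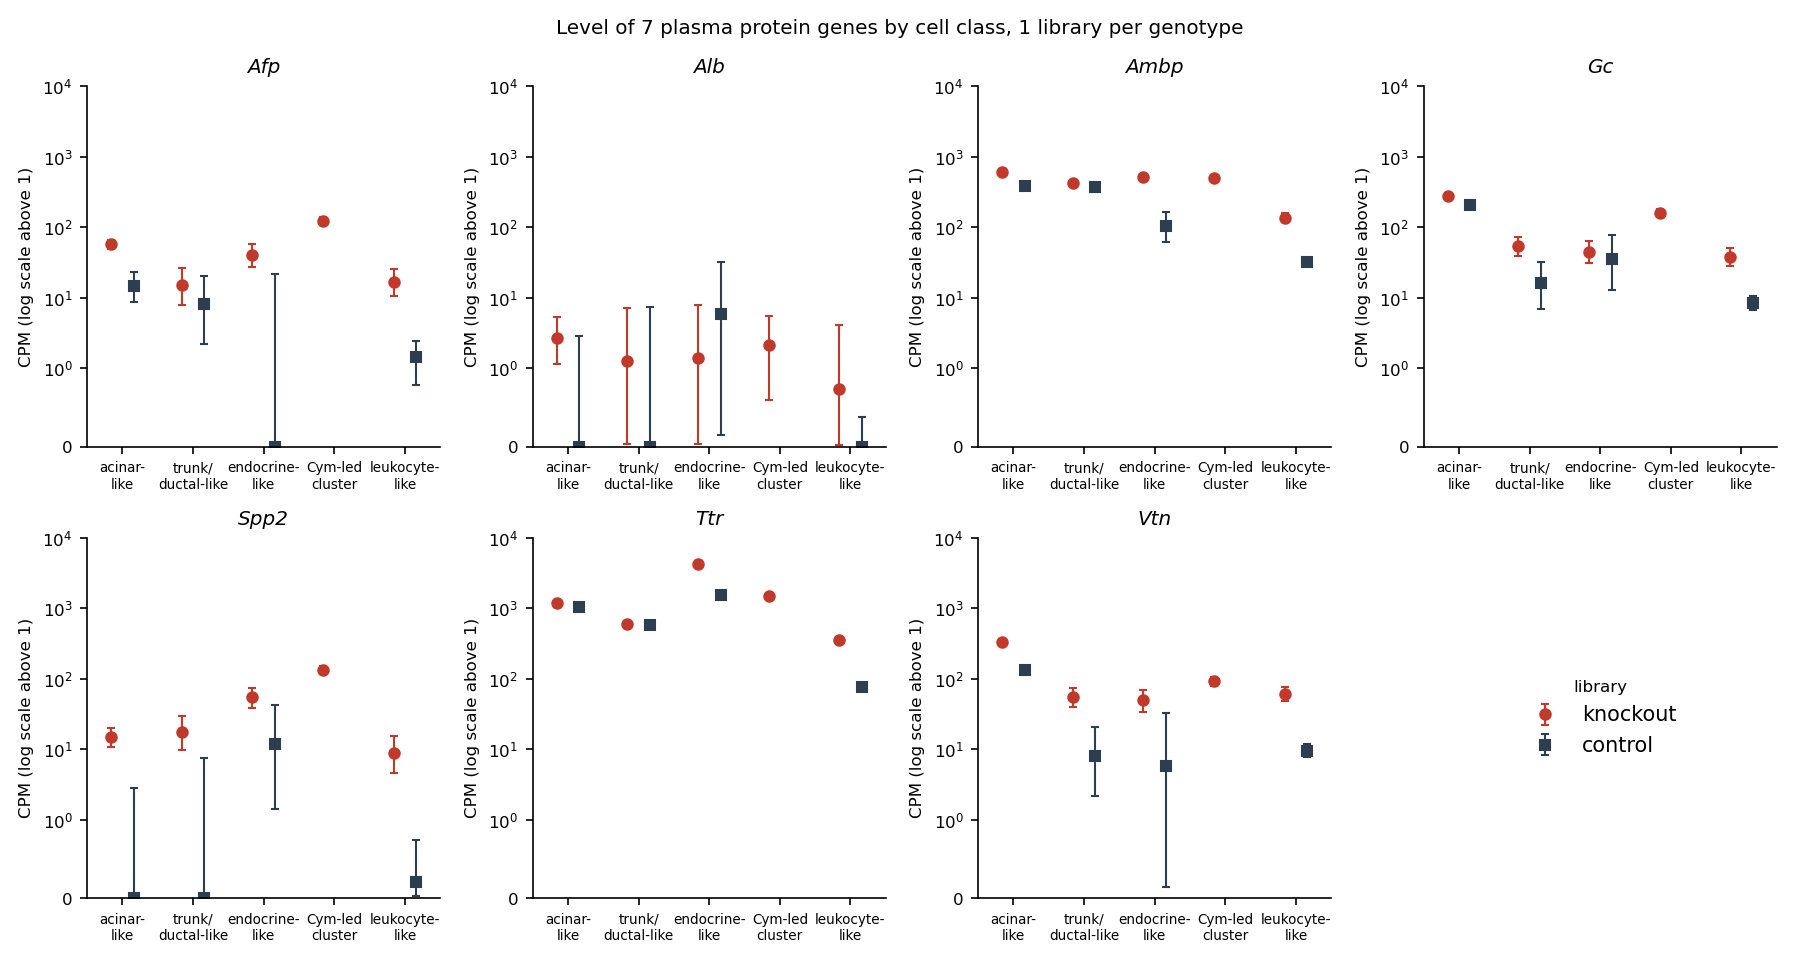
Summed level of each gene (vertical axis, CPM, logarithmic above 1 and linear below) in 5 cell classes of the knockout library (circles) and the control library (squares), with exact 95% Poisson intervals. The leukocyte-like column shows the background of each library, which is higher in the knockout library for 6 genes and rests on 1 UMI for Alb, and the Cym-led cluster has no control cells.

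Afp, Alb and Gc belong to the albumin gene family. Alpha-fetoprotein is the main plasma protein of the fetus, albumin that of the adult, and Gc is the vitamin D-binding protein. On chromosome 5 of mm10, by the GENCODE M21 annotation, Alb spans 90460897 to 90476602 and Afp 90490737 to 90508907, both on the plus strand and 14135 bases apart. Gc lies on the minus strand at 89417522 to 89457898. An annotated antisense gene overlaps Afp without sharing exonic bases and had no UMI.

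The family members differed in level by orders of magnitude in the same cells. Gc measured 281 CPM in knockout acinar-like cells (835 UMIs, 262 to 301) and 209.5 CPM in control acinar-like cells (271 UMIs, 185 to 236). Single knockout acinar-like cells ran from 0 through a median of 221 to 1439 CPM, and control ones from 0 through 180 to 707 CPM, so the cells of the libraries overlapped over most of their range. The ratio was 1.34 (1.17 to 1.54). Thinned to 5000 UMIs per cell, 67.7% of knockout and 62.5% of control acinar-like cells held a Gc UMI (93.5% and 96.0% unthinned), against 20% and 4.22% of leukocyte-like cells. At 3000 UMIs the acinar-like shares were 38.7% and 52%, so no order is read from them. Median depth was 31629 UMIs in knockout and 23318 UMIs in control acinar-like cells, and 15087 and 10536 UMIs in leukocyte-like cells.

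Outside acinar-like cells Gc was high in the Cym-led cluster, at 160 CPM (295 UMIs), or 4.20 times the leukocyte-like level of that library (3.12 to 5.75). Knockout trunk/ductal-like cells at 54.7 CPM (43 UMIs) and endocrine-like cells at 45.0 CPM (32 UMIs) stood within counting error of the 38.1 CPM of leukocyte-like cells. Control trunk/ductal-like cells held 16.1 CPM from 8 UMIs and control endocrine-like cells 35.1 CPM from 6 UMIs, over 8.52 CPM in leukocyte-like cells. The excess over leukocyte-like cells was 1.44-fold (0.935 to 2.19) in knockout and 1.89-fold (0.791 to 3.91) in control trunk/ductal-like cells, within counting error in both. The trunk/ductal-like ratio between libraries, 3.39 (1.58 to 8.35), is therefore set beside a background ratio for Gc of 4.48 (3.10 to 6.41) in leukocyte-like cells. It was 13.8 with the 5 highest cells of both libraries left out, 7.98 with coarser clusters and 7.97 with the Cym-led cluster joined. The 5 highest control cells held 87.5% of the 8 control UMIs, so 13.8 rests on almost no control counts. Joining the Cym-led cluster adds 95 knockout cells and no control cells.

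Afp had 495 UMIs in the knockout library and 37 in the control library. Its highest level was in the Cym-led cluster, at 122 CPM (225 UMIs, 107 to 139), where single cells ran from 0 through a median of 49.3 to 1296 CPM. Knockout acinar-like cells held 57.2 CPM (170 UMIs) and control acinar-like cells 14.7 CPM (19 UMIs), a ratio of 3.90 (2.42 to 6.63). The median knockout acinar-like cell had 36.9 CPM and the median control cell 0. With the leukocyte-like level of each library subtracted, 40.4 CPM remained in knockout and 13.3 CPM in control acinar-like cells, a ratio of 3.05.

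A few cells carried much of this signal. In the knockout acinar-like class 5 of 93 cells held 36.5% of the Afp UMIs, and in the Cym-led cluster 5 of 95 cells held 39.6%. One knockout acinar-like cell with 49446 UMIs had 33 Afp UMIs, when the next cell had 9, and it also had the most Vtn (101) and Gc (62) UMIs of its class. The same cell had the most Cela3b, Prss2 and Cel, so its enzyme transcripts were high as well. Without it the acinar-like Afp ratio was 3.19 and the Vtn ratio 2.26.

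In the remaining epithelial classes Afp rested on few counts. Knockout endocrine-like cells held 40.8 CPM (29 UMIs) and control endocrine-like cells none. With 3 counts in place of 0 in the control class the ratio would be 2.33, and the exact lower limit with the 0 was 1.77. Trunk/ductal-like cells had 15.3 CPM in the knockout and 8.06 CPM in the control library from 12 and 4 UMIs, and the knockout value was no higher than the 16.9 CPM of leukocyte-like cells. At 5000 UMIs per cell, Afp was seen in 20.4% of knockout and 8.33% of control acinar-like cells and in 27.4% of the Cym-led cluster, against 7.50% of knockout and 0.409% of control leukocyte-like cells. Unthinned, the shares were 66.7% and 28% in acinar-like cells, 65.3% in the Cym-led cluster, and 25.9% and 1.73% in leukocyte-like cells.

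Alb was close to absent. All kept cells of both libraries held 17 Alb UMIs, 16 in the knockout and 1 in the control library. Knockout acinar-like cells had 8 UMIs in 7 of 93 cells (2.69 CPM), and the 50 control cells none, a difference within counting error. Within each library the intervals of all classes overlapped. The neighbouring Afp had 532 UMIs in the same cells.

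The stretches just upstream of the family's gene starts are shown because the 3 genes carry matches to the same hepatic factor motif while their levels differ. Each line gives the 150 bases before the RefSeq gene start (GRCm38.p6), positions -150 to -1, written 5′ to 3′ on the gene's strand, for Afp at chr5:90490564-90490713 (plus), Alb at chr5:90460720-90460869 (plus) and Gc at chr5:89457899-89458048 (minus). Capitals mark matches to the motifs described below.
Afp: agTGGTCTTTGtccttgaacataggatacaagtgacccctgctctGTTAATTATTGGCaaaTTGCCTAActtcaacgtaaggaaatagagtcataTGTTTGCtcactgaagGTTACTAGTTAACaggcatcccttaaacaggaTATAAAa
Alb: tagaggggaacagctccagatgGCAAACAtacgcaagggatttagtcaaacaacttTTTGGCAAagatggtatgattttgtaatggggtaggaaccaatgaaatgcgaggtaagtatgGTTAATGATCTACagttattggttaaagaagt
Gc: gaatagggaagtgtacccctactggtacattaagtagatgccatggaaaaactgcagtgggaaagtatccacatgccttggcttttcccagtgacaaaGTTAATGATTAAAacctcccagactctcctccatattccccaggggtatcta

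The motifs searched on both strands of each 300-base RefSeq window (250 bases before to 50 after the start) were of 6 kinds. The HNF1 motif is an inverted repeat of the arm GTTAAT around any 1 base and was allowed at most 2 mismatches, and the arm was also searched alone without mismatch. The HNF4 motif was CAAAGTCCA with at most 1 mismatch. The FOXA motif was TGTTTNC, the CEBP motif TTGCNNAA and the promoter box TATAAA, all without mismatch. A match to that arm can lie inside an HNF1 match. HNF1 matches stood in Afp at -105 to -93 and at -39 to -27, in Alb at -32 to -20 and in Gc at -52 to -40, so 3 of the 6 members searched had one, against 1.37% of 32544 mouse promoters. The annotated GENCODE start lies 23 bases downstream of the RefSeq start for Afp and 27 bases for Alb. For Ambp it lies 627 bases upstream, so the Ambp window is inside the annotated gene span, and for Spp2 and Vtn it lies 49 and 29 bases upstream. FOXA matches stood in 4 of 6 members (Afp, Alb, Ambp and Vtn; 20.5% of all promoters), the HNF1 arm in 4 (Afp, Alb, Gc and Vtn; 7.13%), CEBP in 2 (Afp and Alb; 10.8%), the TATAAA box in 2 (Afp and Vtn; 13.6%) and HNF4 in 1 (Afp; 8.51%). The Spp2 window held none of the 6 motifs. Alb, with next to no transcripts, carried matches to the HNF1, FOXA and CEBP motifs, as did Afp. A match is a description of the letters and not a bound site.

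Ttr encodes transthyretin, the carrier of thyroxine and of the retinol-binding protein, and lies on chromosome 18, 20665280 to 20674321, plus strand. It gave the most UMIs of the 7 genes in every epithelial class of both libraries, and UMIs are not divided by transcript length here. Endocrine-like cells held the highest level in each library, 4268 CPM in the knockout (3036 UMIs, 4118 to 4423) and 1513 CPM in the control (259 UMIs, 1335 to 1709). Single endocrine-like cells ran from 259 through a median of 2836 to 19110 CPM in the knockout library and from 0 through 726 to 11530 CPM in the control library. The ranges overlapped. At 5000 UMIs, 97.6% of knockout and 80% of control endocrine-like cells held Ttr (100% and 75% unthinned), against 76.2% and 33.0% of leukocyte-like cells (100% and 57.2% unthinned). The ratio was 2.82 (2.48 to 3.21). In the control class 5 cells held 75.7% of the Ttr UMIs, in the knockout class 40.8%, and with the 5 highest cells of both libraries left out the ratio was 5.95. The 5 cells were a larger part of the 20 control than of the 42 knockout cells, so 5.95 is not read as a larger difference. With each library clustered alone the ratio was 5.08.

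The endocrine-like cells were split further to see which of them held Ttr. A sub-cluster led by the hormone genes Gcg (glucagon), Ghrl (ghrelin) and Pyy (peptide YY) had the highest Ttr level, 7744 CPM in 15 knockout cells and 4547 CPM in 4 control cells (ratio 1.70, 1.43 to 2.04). A sub-cluster led by Ins1, Ins2 and Pyy, with the insulin transcripts of beta cells, had 3138 CPM in 13 knockout cells and 972 CPM in 8 control cells (ratio 3.23, 2.46 to 4.31). The hormone transcripts of this sub-cluster differed between the libraries, with Pyy at 19870 CPM and Ins2 at 3814 CPM in knockout cells, and Pyy at 3137 CPM and Ins2 at 31600 CPM in control cells, and the part of this in the Ttr ratio was not tested. A sub-cluster led by Neurog3, the transcription factor of endocrine progenitors, had 1466 CPM in 14 knockout cells and 809 CPM in 8 control cells (ratio 1.81, 1.39 to 2.39). In both libraries the Gcg/Ghrl/Pyy-led cells thus stood above the rest in Ttr, and in all 3 sub-clusters the knockout Ttr level was the higher. The Gcg/Ghrl/Pyy-led cells held more Ghrl and Pyy than Gcg, and are not named as alpha cells. Their knockout levels were 11140 CPM for Ghrl, 12380 CPM for Pyy and 4837 CPM for Gcg. Control levels were 9296, 9599 and 4648 CPM. The Gcg/Ghrl/Pyy-led cells made up 35.7% of knockout (21.6 to 52.0) and 20% of control (5.73 to 43.7) endocrine-like cells, with overlapping intervals.

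**Figure D2:**
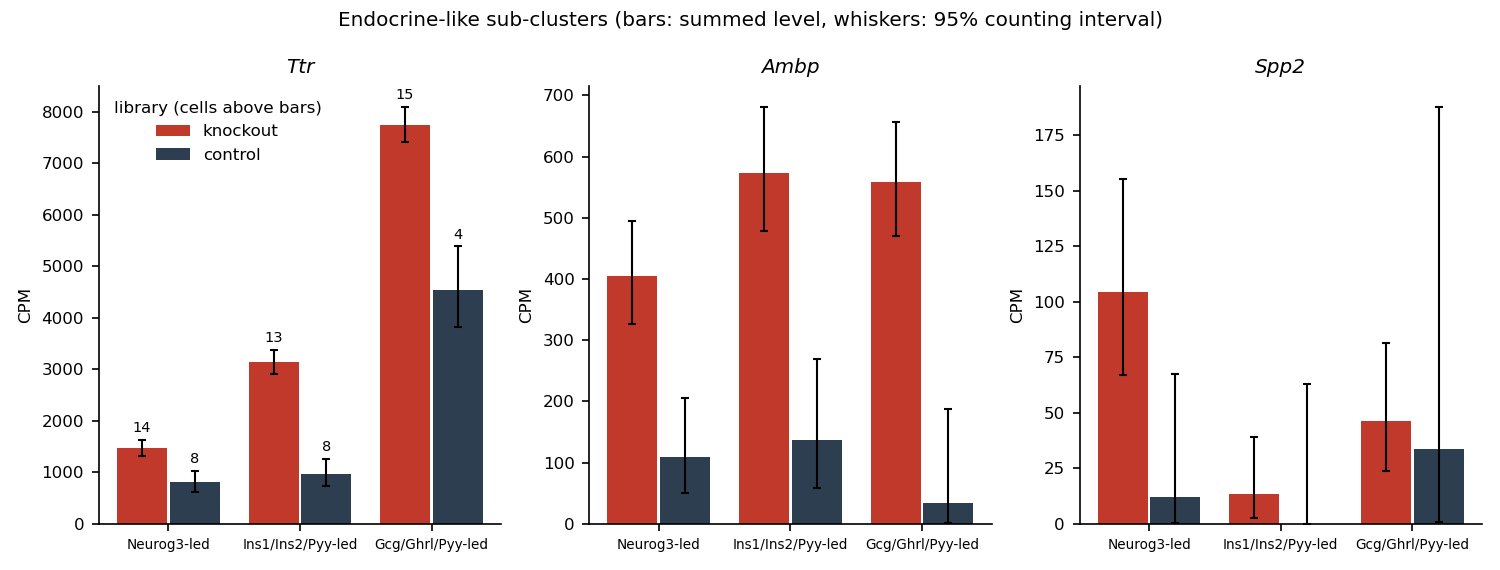
Summed level (CPM, linear axis from 0) of Ttr, Ambp and Spp2 in 3 sub-clusters of endocrine-like cells, knockout bars left of control bars, with exact 95% Poisson intervals and the number of cells above the Ttr bars. Ttr reached 7744 CPM in knockout and 4547 CPM in control Gcg/Ghrl/Pyy-led cells, and the control bars of Ambp and Spp2 rest on 0 to 9 UMIs each.

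In acinar-like and trunk/ductal-like cells the Ttr ratio lay near 1 and depended on the processing. Acinar-like cells held 1179 CPM in the knockout and 1041 CPM in the control library, with single-cell medians of 1165 and 1008 CPM, a ratio of 1.13 (1.06 to 1.21). After subtraction of the leukocyte-like level the order turned round, to 826 and 964 CPM and a ratio of 0.856. Trunk/ductal-like cells held 600.5 and 578.5 CPM (ratio 1.04, 0.894 to 1.21), or 0.493 after subtraction. The trunk/ductal-like ratio was 1.80 with the 5 highest cells of both libraries left out, 2.115 with coarser clusters and 2.135 with the Cym-led cluster joined, so no direction is read from it. The Cym-led cluster held 1506 CPM, 4.27 times the leukocyte-like level of its library.

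Ambp encodes a precursor that is cleaved into alpha-1-microglobulin, a lipocalin, and bikunin, a protease inhibitor of the inter-alpha-trypsin inhibitor complex. The gene lies on chromosome 4, 63143275 to 63154799, minus strand. No epithelial class of either library lacked it. Knockout levels were 609.6 CPM in acinar-like cells, 513 in endocrine-like cells, 494 in the Cym-led cluster and 420 CPM in trunk/ductal-like cells. Control levels were 381 CPM in acinar-like and 371 CPM in trunk/ductal-like cells, which did not differ beyond counting error, and 105 CPM in endocrine-like cells from 18 UMIs. Every acinar-like cell of both libraries held Ambp, from 93.2 through a median of 589 to 2338 CPM in knockout cells and from 74.4 through 379 to 1123 CPM in control cells.

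Among the epithelial classes with cells in both libraries, the Ambp ratio was highest in endocrine-like cells. It was 1.599 (1.45 to 1.77) in acinar-like cells, 1.13 (0.942 to 1.36) in trunk/ductal-like cells and 4.88 (3.04 to 8.33) in endocrine-like cells. After subtraction of the leukocyte-like level the ratios were 1.36, 0.836 and 5.14. Leukocyte-like cells themselves held Ambp at 136 CPM in the knockout and 31.9 CPM in the control library. Their ratio was 4.27 (3.54 to 5.14), which lies within the endocrine-like interval. Of the 18 control endocrine-like UMIs, 77.8% sat in 5 cells. With the 5 highest cells of both libraries left out, the endocrine-like ratio was 10.8, and with each library clustered alone it was 1.795. The 5 cells were a larger part of the 20 control than of the 42 knockout cells, so 10.8 is not read as a larger difference. At 5000 UMIs, 69.0% of 42 knockout and 33.3% of 15 control endocrine-like cells held an Ambp UMI (92.9% and 45.0% unthinned), against 46.2% and 14.2% of leukocyte-like cells (85.2% and 30.4% unthinned). The median endocrine-like cell had 16608 UMIs in the knockout and 7576 UMIs in the control library.

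Vtn encodes vitronectin, an adhesive glycoprotein that binds integrins and stabilises plasminogen activator inhibitor 1. Its position is chromosome 11, 78499091 to 78502324, plus strand. It was concentrated in acinar-like cells, where it measured 327 CPM in the knockout (972 UMIs, 307 to 348) and 132 CPM in the control library (171 UMIs, 113 to 154). Single cells ran from 0 through a median of 198 to 2248 CPM in the knockout and from 0 through 88.4 to 1662 CPM in the control library. The ratio was 2.48 (2.10 to 2.93), and 2.17 after subtraction of the leukocyte-like level. In endocrine-like cells Vtn measured 49.2 CPM in the knockout and 5.84 CPM in the control library, and in trunk/ductal-like cells 54.7 and 8.06 CPM. All 4 of these values lay within counting error of the leukocyte-like level of their library, 60.9 CPM in the knockout and 9.55 CPM in the control, so their ratios are not read as differences. At 5000 UMIs, 65.6% of knockout and 35.4% of control acinar-like cells held Vtn (94.6% and 72.0% unthinned), against 26.2% and 4.496% of leukocyte-like cells (56.8% and 10.9% unthinned).

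**Figure D3:**
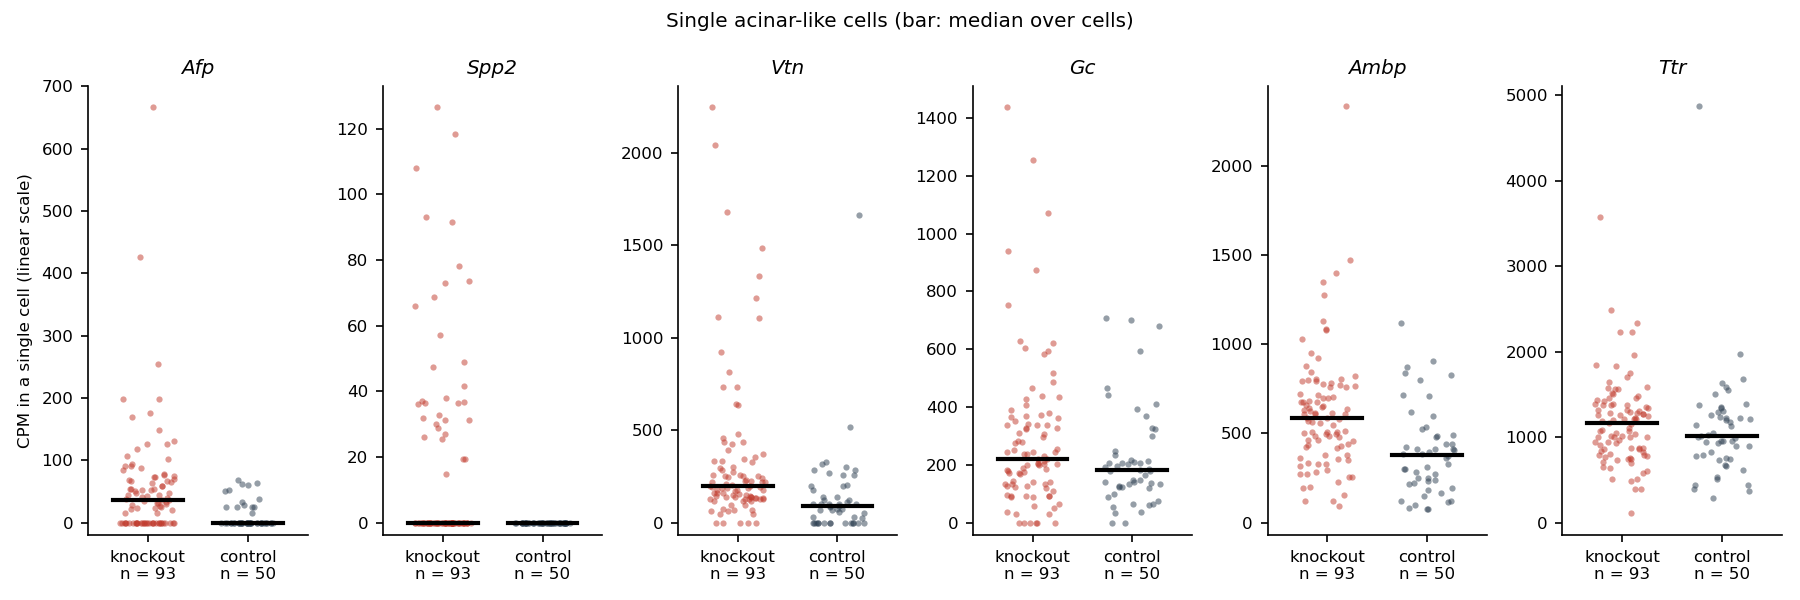
CPM of 6 members in single acinar-like cells (linear axes, a separate scale for each gene), 93 knockout cells left of 50 control cells, with the median over cells as a bar. Medians for Vtn were 198 and 88.4 CPM, for Ambp 589 and 379 CPM and for Ttr 1165 and 1008 CPM, no control cell held Spp2, and the ranges of the libraries overlap for the other genes.

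Spp2 encodes secreted phosphoprotein 2, a cystatin-related protein that reaches bone matrix from plasma. It lies on chromosome 1, 88406961 to 88426438, plus strand. The Cym-led cluster held 131 CPM (242 UMIs, 115 to 149), 14.9 times the leukocyte-like level of its library (8.38 to 29.3), with single cells from 0 through 80.1 to 1091 CPM. Knockout endocrine-like cells followed at 54.8 CPM (39 UMIs), but 5 cells held 76.9% of these, and 24 of the 39 UMIs lay in the Neurog3-led sub-cluster. Knockout acinar-like cells at 14.8 CPM (44 UMIs) and trunk/ductal-like cells at 17.8 CPM (14 UMIs) did not stand above leukocyte-like cells at 8.80 CPM (12 UMIs) beyond counting error.

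The control library had 4 Spp2 UMIs in 920 cells, 2 in endocrine-like and 2 in leukocyte-like cells. With 3 counts in place of 0 in the control class, the ratio would be 6.39 in acinar-like and 2.95 in trunk/ductal-like cells. The exact lower limits with the 0 were 4.98 and 2.09. The leukocyte-like classes, at 8.80 CPM in the knockout and 0.205 CPM in the control library, gave a ratio of 42.9 (9.54 to 394). The endocrine-like ratio was 4.69 (1.22 to 40.1). In the Cym-led cluster 42.1% of cells held Spp2 at 5000 UMIs and 69.5% unthinned, against 5% and 13.6% of knockout leukocyte-like cells, at median depths of 19386 and 15087 UMIs.

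Taking the 7 genes as a sum, knockout acinar-like cells held 2471 CPM and control acinar-like cells 1778 CPM, a ratio of 1.39 (1.33 to 1.46). In trunk/ductal-like cells the sums were 1164 and 982 CPM (ratio 1.19, 1.06 to 1.33), in endocrine-like cells 4973 and 1677 CPM (ratio 2.97, 2.63 to 3.36), and over all epithelial-like cells 2601 and 1568 CPM (ratio 1.66, 1.596 to 1.725). The leukocyte-like ratio of 4.81 was above all of these. With the leukocyte-like level subtracted, the sum ratios became 1.13 in acinar-like, 0.644 in trunk/ductal-like, 2.81 in endocrine-like and 1.38 in all epithelial-like cells. The endocrine-like ratio was nearly as large after subtraction, the acinar-like one was smaller, and the trunk/ductal-like one lay on the other side of 1. With the 5 highest cells of both libraries left out, the endocrine-like sum ratio was 5.53, and the trunk/ductal-like one was 2.13 with coarser clusters and 2.15 with the Cym-led cluster joined to it. The 5 cells were a larger part of the 20 control than of the 42 knockout endocrine-like cells, so 5.53 is not read as a larger difference.

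Single members were counted past a 2-fold limit where at least 20 UMIs were seen over both libraries. In acinar-like cells 3 of the 6 members so measured were at least 2-fold higher in the knockout library (Afp, Spp2 and Vtn) and none was 2-fold lower, where 6.83% of 9575 genes were higher and 5.73% lower. In trunk/ductal-like cells 2 of 4 were higher (Gc and Vtn), where 4.64% of 6942 genes were higher and 5.14% lower. In endocrine-like cells 5 of 6 were higher (Afp, Ambp, Spp2, Ttr and Vtn), where 12.2% of 6000 genes were higher and 6.45% lower. Over all epithelial-like cells 3 of 6 were higher (Afp, Spp2 and Vtn), where 8.9% of 11878 genes were higher and 5.03% lower. In leukocyte-like cells all 5 measured members were higher, where 11.6% of 11215 genes were higher and 8.11% lower. Since the genes were chosen on these libraries, nothing is read from these counts.

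**Figure D4:**
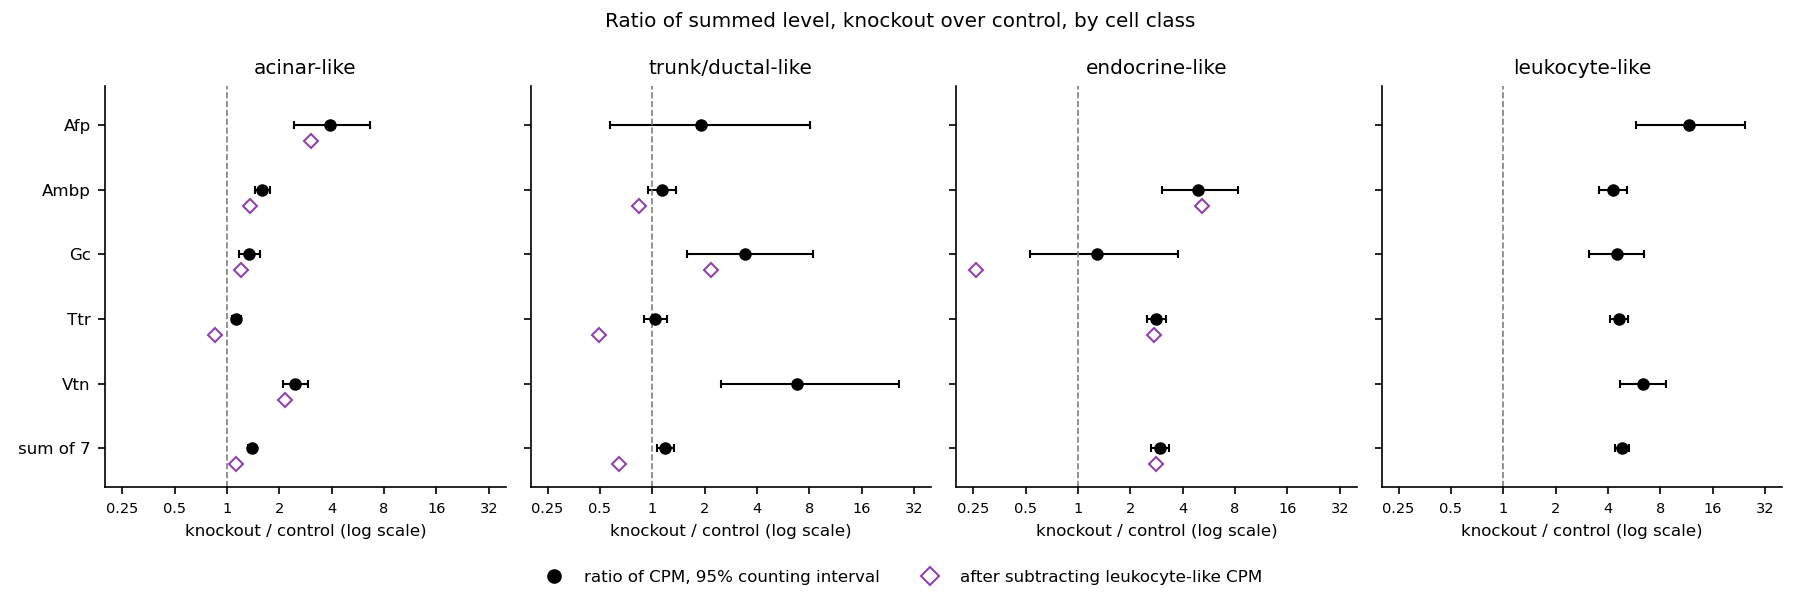
Ratio of summed level, knockout over control (logarithmic axis), for Afp, Ambp, Gc, Ttr, Vtn and the sum of 7 in 4 cell classes, with exact 95% intervals, and the ratio after subtracting the leukocyte-like level of each library (open diamonds, where both sides stay above 0). Intervals are drawn for ratios resting on at least 4 control UMIs. The acinar-like sum stands at 1.39 and 1.13 after subtraction, the endocrine-like sum at 2.97 and 2.81, and the leukocyte-like sum at 4.81.

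The mix of the 7 transcripts set the classes apart. Ttr gave 85.8% of the UMIs of the 7 genes in knockout and 90.2% in control endocrine-like cells, but 47.7% in knockout and 58.5% in control acinar-like cells. Ambp was the next largest part in all 4 epithelial classes and in leukocyte-like cells. Among these classes its part was largest in trunk/ductal-like cells, at 36.1% in the knockout and 37.8% in the control library. Vtn gave 13.2% in knockout and 7.43% in control acinar-like cells. Spp2 and Afp reached their largest parts in the Cym-led cluster, at 5.23% and 4.87%. After thinning to 5000 UMIs the median acinar-like cell held UMIs of 4 of the 7 genes in the knockout and 3 in the control library, the median cell of the Cym-led cluster 3, and the median leukocyte-like cell 2 in the knockout and 0 in the control library. At least 5 of the 7 were found together in 32 of 267 knockout (11.99%) and 1 of 98 control (1.02%) epithelial-like cells. Of the knockout cells 16 lay in the Cym-led cluster, which has no control cells. In acinar-like cells alone the counts were 14 of 93 knockout (15.05%) and 1 of 48 control (2.08%). None of 80 knockout or 734 control leukocyte-like cells held 5, and 1 of 142 knockout mesenchyme-like cells did.

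**Figure D5:**
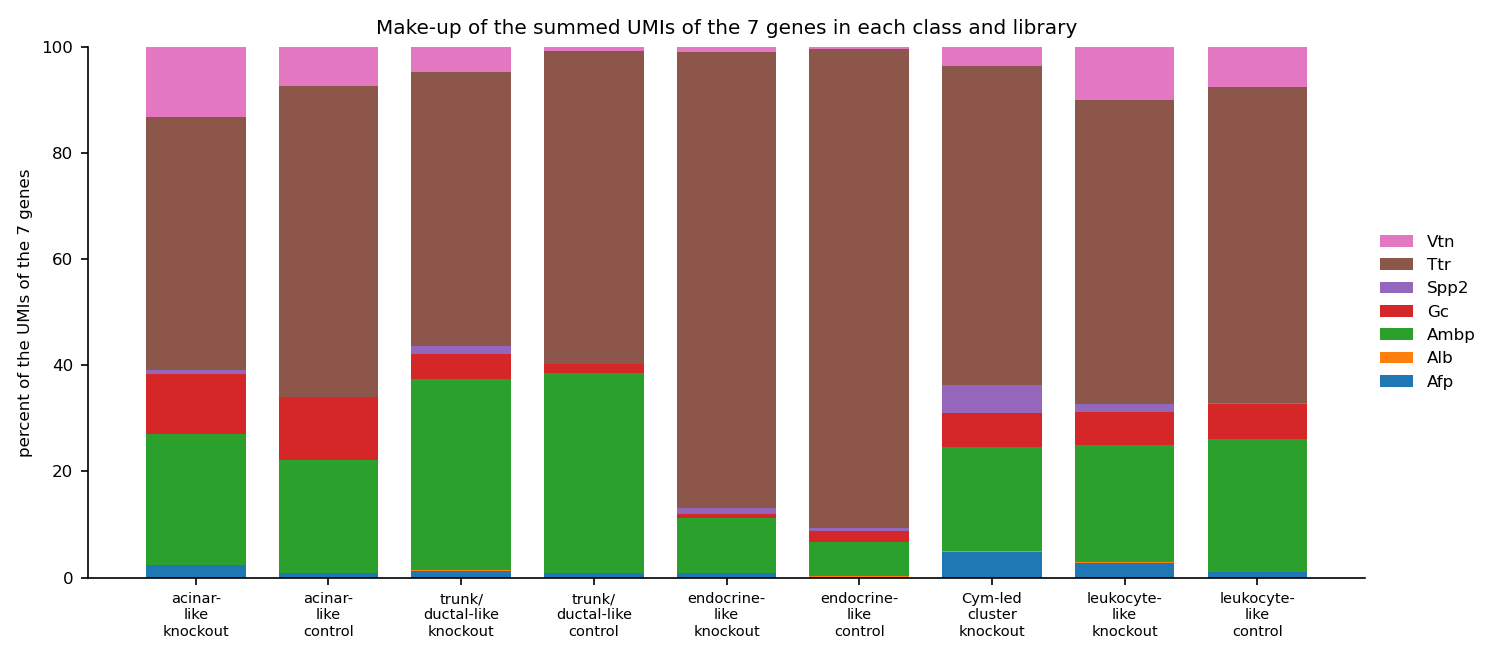
Percentage of the summed UMIs of the 7 genes contributed by each gene (vertical axis) in 5 classes of each library (the Cym-led cluster in the knockout library alone), knockout left of control. Ttr fills 85.8% and 90.2% of the endocrine-like bars, and 57.4% and 59.6% of the leukocyte-like bars.

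Correlations between members from cell to cell were low to moderate. In knockout endocrine-like cells Spearman's rho was 0.57 for Ambp and Ttr, 0.56 for Ambp and Spp2 and -0.46 for Gc and Vtn over 42 cells. In knockout acinar-like cells Gc and Vtn had the highest rho, 0.42 over 93 cells, and in control acinar-like cells Ambp and Gc, 0.55 over 50 cells. In the Cym-led cluster Spp2 and Ttr had a rho of 0.46, Afp and Ttr 0.42, and Afp and Gc -0.23 over 95 cells. Cells of a class share a library and differ in depth, and these values are descriptive.

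Likeness to other genes was read over 19 cluster profiles of at least 15 cells, as Pearson's r of log2(CPM + 10) among 10421 genes. Vtn was most like Prss2 (0.961), Serpina6 (0.954) and Cpa1 (0.943), a trypsinogen, corticosteroid-binding globulin and carboxypeptidase A1. Gc was most like Cyc1 (0.936), Clps (0.931) and Serpina6 (0.923), Clps being the lipase cofactor colipase. Ttr was most like Stard10, Serpina1c and Fam174b (0.968, 0.968 and 0.967), and Ambp like Prr15l (0.976), Cda (0.973) and the tight-junction gene Cldn7 (0.968). Afp was most like Mrpl22 (0.927), complement factor I Cfi (0.904) and Camsap3 (0.889), and Spp2 like Nmb (0.929), Sfrp5 (0.920) and Pfdn2 (0.916). The values for Alb (Klhdc4, 0.809, Cstf3, 0.804, and Hira, 0.801) rest on its 17 UMIs. The profiles share 2 libraries and their background, and no p is given.

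Other plasma protein genes were followed as a list of 56, of which 55 were found in the tables. In acinar-like cells 20 had enough UMIs, and 10 were at least 2-fold higher and 3 at least 2-fold lower in the knockout library, beside 6.83% higher and 5.73% lower of all genes, with a median log2 ratio of 0.97 over the list and 0.02 over all genes measured (0.5 counts added on both sides). In leukocyte-like cells, ranked by ratio, genes 1 to 11 of the 22 measured were at least 2-fold higher. Genes 18 to 22 were at least 2-fold lower, the last with 0 knockout UMIs. Of all genes in leukocyte-like cells, 11.6% were higher and 8.11% lower. The part of background in the epithelial counts of this list was not tested. Serpina1a and Serpina1b, which encode the protease inhibitor alpha-1-antitrypsin, measured 47.5 and 174 CPM in knockout and 3.87 and 18.6 CPM in control acinar-like cells, ratios of 12.3 (5.14 to 38.4) and 9.40 (6.25 to 14.8). Leukocyte-like cells held Serpina1a at 25.7 CPM in the knockout and 0.616 CPM in the control library, and Serpina1b at 82.9 and 1.44 CPM. These paralogs are nearly identical in sequence, and how reads were shared between them is uncertain. Serpinf1, which encodes PEDF, followed with 13.8 CPM in knockout and 1.55 CPM in control cells from 41 and 2 UMIs (ratio 8.92, 2.32 to 76.2). Leukocyte-like cells held it at 8.07 CPM in the knockout and 3.28 CPM in the control library, so the control acinar-like value did not exceed them. At the other end stood Apoe, the lipid carrier apolipoprotein E, at 263 CPM in knockout and 2244 CPM in control cells (0.117), haptoglobin Hp at 9.43 and 27.1 CPM (0.348) and transferrin Trf at 30.3 and 76.6 CPM (0.396). Leukocyte-like cells made far more of these last 3, with Apoe at 4070 CPM in the knockout and 13790 CPM in the control library, and the part of background in their ratios was not tested.

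The same list in the other classes gave 3 higher and 3 lower of 13 measured in trunk/ductal-like cells (median log2 ratio 0.06, and 0.02 over all genes), beside 4.64% higher and 5.14% lower of all genes. In endocrine-like cells 11 were higher and 1 lower of 15 (median 2.03, or 2.19 with 3 counts in place of a control count of 0, and -0.01 over all genes), beside 12.2% higher and 6.45% lower of all genes. In trunk/ductal-like cells the ends were Serpina1b (109 CPM in knockout and 12.1 CPM in control cells), Serpina6 (298 and 64.5 CPM) and Igf2 (68.7 and 30.2 CPM) against Apoe (317 and 2421 CPM), Trf (20.4 and 120.9 CPM) and Serpinf1 (20.4 and 58.5 CPM). The 3 higher genes stood near the level of knockout leukocyte-like cells, which was 82.9 CPM for Serpina1b, 288 CPM for Serpina6 and 60.9 CPM for Igf2. Endocrine-like cells of the knockout library held Serpina1b at 624 CPM, Serpina1a at 243 CPM and Igf2 at 80.1 CPM. The 20 control cells had no UMI of them. With 3 counts in place of 0 the ratios would be 35.6, 13.9 and 4.57, and the exact lower limits with the 0 were 28.8, 11.2 and 3.60. Igf2 was at 60.9 CPM in knockout leukocyte-like cells and at 8.42 CPM in control ones. Over all epithelial-like cells 15 of 28 measured genes were higher and 5 lower, beside 8.9% higher and 5.03% lower of all genes. This joined class holds the 95 knockout cells of the Cym-led cluster, which has no control cells, so its mix of cells differs between the libraries. The lowest endocrine-like ratios were those of Apoe (0.152), Trf (0.602) and the ribonuclease gene Ang (0.962).

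Transcription factors of the hepatic network were followed as a list of 23. In acinar-like cells 16 of them had enough UMIs, 3 being higher (among them Nr2f2, 5.95, from 41 knockout and 3 control UMIs, 1.90 to 30.04, and Hhex, 2.61), 1 lower (Cebpb, 0.388) and 12 between, beside 6.83% higher and 5.73% lower of all genes, with a median log2 ratio of 0.33 (0.02 over all genes). Nr2f2 at 13.8 CPM and Hhex at 62.6 CPM in knockout acinar-like cells did not exceed knockout leukocyte-like cells, at 18.3 and 67.5 CPM. In trunk/ductal-like cells 0 of 13 were higher and 1 was lower (Zbtb20, 0.441), beside 4.64% higher and 5.14% lower of all genes, so nothing is read from this count. In endocrine-like cells 0 of 10 were higher and 4 were lower, Onecut2 (0.261), Foxa2 (0.445), Cebpb (0.481) and Hhex (0.481), with a median log2 ratio of -0.55 (-0.01 over all genes), beside 12.2% higher and 6.45% lower of all genes. Cebpb measured 39.4 and 81.8 CPM in knockout and control endocrine-like cells, and 41.4 and 106.7 CPM in acinar-like cells. Leukocyte-like cells held far more, 521 and 793 CPM. Hhex measured 75.9 and 157.8 CPM in endocrine-like cells, beside 67.5 and 76.5 CPM in leukocyte-like cells. Onecut2 and Foxa2 did not exceed 8.80 CPM in leukocyte-like cells of either library. The part of background in these ratios was not tested. Hnf4a, the nuclear receptor of hepatocyte and pancreatic endoderm, measured 18.2 CPM in knockout and 12.4 CPM in control acinar-like cells (1.47, 0.829 to 2.75) and 26.7 and 23.4 CPM in endocrine-like cells (1.143, 0.380 to 4.62). These counts describe the lists, and the difference between the lists was not tested.

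Genes for receptors and partners of the 7 proteins formed a list of 16. Of these, 6 were measured in acinar-like cells, 0 higher and 1 lower, and 5 in trunk/ductal-like cells, likewise 0 higher and 1 lower. Of all genes 6.83% were higher and 5.73% lower in acinar-like cells, and 4.64% and 5.14% in trunk/ductal-like cells. The lower gene was Fcgrt in both, which encodes the neonatal Fc receptor that recycles albumin, at 15.8 CPM in knockout and 116.8 CPM in control acinar-like cells, where leukocyte-like cells had 161 and 561 CPM. In endocrine-like cells 1 of 5 was higher and 1 lower, where 12.2% of all genes were higher and 6.45% lower. The lower gene was again Fcgrt (19.7 CPM in knockout and 58.4 CPM in control cells), and the higher one Rbp4, whose product the Ttr protein carries, at 3010 CPM in the knockout and 1116 CPM in the control library (ratio 2.70, 2.33 to 3.14), close to the 2.82 of Ttr itself.

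Markers of hepatocytes were looked for, since a liver cell in the sort would carry these transcripts. Of 15 markers beside the 7 genes, some of which also stand in the lists above, 11 had a UMI in knockout and 7 in control epithelial-like cells, and Fga, Apoh, Cps1 and Tat were at 0 in both. Their summed level ranged from 45.8 CPM in trunk/ductal-like cells to 349 CPM in the Cym-led cluster in the knockout library, and from 24.0 to 54.4 CPM over the 3 control epithelial classes. Knockout leukocyte-like, mesenchyme-like and mesothelium-like cells held 35.9, 44.7 and 50.7 CPM, and control leukocyte-like cells 2.77 CPM, so the knockout trunk/ductal-like value was at the level of cells outside the epithelium. Serpina1a alone gave 141 of the 182.5 CPM in knockout epithelial-like cells. The most markers found in one cell were 7 in a knockout acinar-like cell and 3 in a control acinar-like cell, and their part in the levels of the 7 genes was not tested.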

How the data were processed

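The deposited files hold counts of UMIs per gene and cell, 1 table per genotype; per the submitters' processing notes, Cell Ranger 2.0.0, mm10, Seurat 2.0 and DESeq2 1.14.1 were used. The authors' counts carry no normalization. Both sequencing runs of a genotype are in its table, and 0 per-sample columns were left unused. A symbol in the annotation was found for 27722 of 27998 gene rows.

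Barcodes under 500 genes or over 10% mitochondrial UMIs were dropped (56 knockout and 16 control), and Scrublet marked 5 doublets per library, which were removed. Clustering (scanpy 1.11.5, leidenalg 0.10.2; 2000 variable genes without the 7 genes and the other plasma protein genes, 30 principal components, 15 neighbours, resolution 1) gave classes named from marker lists, by a rule settled after the data were seen. Counts were summed per class and library and divided by the class total (CPM). With 1 library per genotype no test was made. Intervals (scipy 1.17.1) are exact Poisson for levels, exact binomial (Clopper-Pearson) for shares, and exact conditional for ratios. For a ratio with a count of 0, a point value was taken with 3 counts in its place, and the exact limit with the 0 itself. The code was tested on simulated data.

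The 7 genes and the lists (other plasma proteins, liver-type transcription factors, receptors and partners, hepatocyte markers) were chosen with earlier results of these data known. Of each list the 3 genes with the highest and lowest ratio were named, and for likeness the 3 nearest genes; other genes were named after their values were seen. The values of 1 gene that this rule names are not reported here. Alternatives were other filters, cluster resolutions, scalings (edgeR 4.0.16 TMM and DESeq2 1.42.0 size factors, R 4.3.3), thresholds and subtraction of the leukocyte-like level; leaving out 1 acinar-like cell and joining the Cym-led cluster to the trunk/ductal-like class were chosen after seeing the data.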

Additional observations from a re-analysis of the deposited data

How the results depend on the processing

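No paired analysis was possible because both runs of a genotype share 1 table without run labels, so no replicate could be left out either. Of 299 gene ratios recomputed, 273 stayed within their interval and 26 left it. With the leukocyte-like level subtracted, Ttr in acinar-like cells, whose interval had excluded 1, was 0.856, and Ttr (0.493) and Ambp (0.836) in trunk/ductal-like and Gc (0.258) in endocrine-like cells also lay under 1. The subtracted summed ratios were 1.13 in acinar-like, 0.644 in trunk/ductal-like (turned round) and 1.38 in epithelial-like cells. The trunk/ductal-like sum ratio was 1.615 when cells under 1000 genes or over 5% mitochondrial UMIs were dropped, 1.40 without a filter, 2.13 at resolution 0.5, 1.51 at resolution 2, 1.44 without the 5 highest cells and 2.15 with the Cym-led cluster joined. The endocrine-like sum ratio was 4.21 with each library clustered alone, 2.37 as a mean of cells and 5.53 without the 5 highest cells. Those 5 cells were a larger part of the 20 control than of the 42 knockout endocrine-like cells. The epithelial-like sum ratio was 1.55 with TMM and 1.56 with DESeq2 scaling. Clustered alone, the control library had no trunk/ductal-like class and gave no value. For the other plasma proteins, a minimum of 1 UMI gave 23 higher and 7 lower in acinar-like and 16 and 8 in trunk/ductal-like cells. It gave 20 and 6 in endocrine-like cells and 24 higher in epithelial-like cells. A minimum of 50 UMIs gave 6 higher in acinar-like and 3 lower in epithelial-like cells. Of the 55 list genes found, 26 had no UMI in control and 16 none in knockout acinar-like cells, so at a minimum of 1 UMI some pass on very few counts. The shares over all genes were not taken at these 2 minimums, and nothing is read from these counts. Of 126 shares recomputed at 3000 UMIs or unthinned, 70 lay outside the interval at 5000 UMIs. Fewer UMIs per cell tend to leave fewer cells with a UMI, so shares are comparable at the same depth only. The cause of the changes in ratios and list counts was not tested. Classes of 20 to 50 control cells limit the precision for Afp, Alb and Spp2.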
